A study of Mus musculus with 4 samples.

Results

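A set of 35 genes of glycolysis and of the transcriptional response to hypoxia was followed in ureter explants after a block of WNT secretion. The members were the genes whose name in the array files equals an entry of a given list. They comprise 16 glycolytic enzyme genes, 3 genes for regulators of glycolysis, 15 further targets of the hypoxia-inducible factor (HIF) and the HIF subunit gene Hif1a. All 35 were found among the 29924 gene names on the arrays, and all 35 were well above background in all 8 channels.

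Ureters of wild-type NMRI mouse embryos were explanted at E12.5 and kept for 18 h either with IWP-2 (10 µM) or with its solvent DMSO as the control. IWP-2 inhibits Porcupine, the enzyme that lipidates WNT proteins for their release. Both groups shared a medium with pyruvate and without serum, and the sex of the embryos was not determined. RNA came from pools of whole ureters, so that epithelium, mesenchyme and other cells were measured together, and fewer cells of a type cannot be told apart from less RNA per cell. The 4 two-colour Agilent arrays each compared 1 treated pool with 1 control pool. Treated RNA was red on arrays 1 and 3 and green on arrays 2 and 4. The labels and the methods of the study count 4 replicates, whereas its results text and figure legend speak of a pair of arrays and of pools at this stage. It was therefore not settled whether the 4 arrays hold independent pools or dye swaps of fewer pools. The n of 4 counts arrays, and the p-values measure the spread between them, which may be technical.

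Glycolysis converts glucose to pyruvate in the cytosol, and lactate dehydrogenase can reduce pyruvate further to lactate. When oxygen is low, prolyl hydroxylases no longer mark HIF-1α for degradation, and HIF binds a short DNA core in its target genes. Many glycolytic enzyme genes are HIF targets themselves, as are genes for angiogenic factors, pH regulation and mitophagy. HIF-1α is controlled mainly through the stability of the protein, so that the mRNA of its targets, and not that of Hif1a, is the usual readout.

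The HIF core is shown here because HIF binds it in its target genes. The members were taken by name and not by this sequence. The windows below are RefSeq promoter sequences of the build GRCm38.p6, which run from 250 bases before to 50 bases after a transcription start, 5′ to 3′ on the gene's strand. Capitals mark every ACGTG or GCGTG on either strand, so that CACGT and CACGC are the same cores read on the other strand, and CACGTG holds a core on both strands. The genes are 2 enzymes without a passed change and 1 that fell, 2 HIF targets that rose, and Car9, whose values hardly moved.
Hk2 (chr6:82774405-82774704, minus strand): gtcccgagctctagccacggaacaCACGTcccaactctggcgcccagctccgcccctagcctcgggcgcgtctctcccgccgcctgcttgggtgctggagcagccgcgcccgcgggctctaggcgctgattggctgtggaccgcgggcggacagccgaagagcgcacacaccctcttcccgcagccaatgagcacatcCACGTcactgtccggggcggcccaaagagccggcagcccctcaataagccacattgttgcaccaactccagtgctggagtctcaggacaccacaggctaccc
Pgk1 (chrX:106186850-106187149, plus strand): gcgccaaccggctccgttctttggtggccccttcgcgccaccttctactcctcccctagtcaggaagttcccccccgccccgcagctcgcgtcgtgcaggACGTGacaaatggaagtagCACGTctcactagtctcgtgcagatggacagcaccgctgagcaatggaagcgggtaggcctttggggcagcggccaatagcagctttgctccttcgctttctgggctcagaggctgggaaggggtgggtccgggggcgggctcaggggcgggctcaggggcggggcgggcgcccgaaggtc
Ldha (chr7:46845554-46845853, plus strand): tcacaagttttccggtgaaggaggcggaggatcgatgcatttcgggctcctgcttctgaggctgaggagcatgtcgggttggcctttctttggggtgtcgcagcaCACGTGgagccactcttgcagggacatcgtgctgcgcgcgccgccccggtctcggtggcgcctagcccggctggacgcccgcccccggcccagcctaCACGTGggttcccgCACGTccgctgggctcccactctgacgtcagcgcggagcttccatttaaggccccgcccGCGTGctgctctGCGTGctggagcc
Bnip3 (chr7:138909457-138909756, minus strand): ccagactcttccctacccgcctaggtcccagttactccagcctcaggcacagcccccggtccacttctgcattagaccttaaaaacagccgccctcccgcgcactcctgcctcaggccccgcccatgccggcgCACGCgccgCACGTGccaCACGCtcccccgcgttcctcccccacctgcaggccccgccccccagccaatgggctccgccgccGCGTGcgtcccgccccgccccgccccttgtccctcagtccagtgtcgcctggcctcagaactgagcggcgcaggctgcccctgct
Adm (chr7:110627407-110627706, plus strand): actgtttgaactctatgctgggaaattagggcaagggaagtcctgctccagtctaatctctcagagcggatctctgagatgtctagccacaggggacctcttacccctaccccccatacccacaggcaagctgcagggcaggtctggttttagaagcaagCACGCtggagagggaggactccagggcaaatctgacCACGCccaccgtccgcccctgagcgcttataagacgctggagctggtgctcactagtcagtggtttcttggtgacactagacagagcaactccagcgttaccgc
Car9 (chr4:43506776-43507075, plus strand): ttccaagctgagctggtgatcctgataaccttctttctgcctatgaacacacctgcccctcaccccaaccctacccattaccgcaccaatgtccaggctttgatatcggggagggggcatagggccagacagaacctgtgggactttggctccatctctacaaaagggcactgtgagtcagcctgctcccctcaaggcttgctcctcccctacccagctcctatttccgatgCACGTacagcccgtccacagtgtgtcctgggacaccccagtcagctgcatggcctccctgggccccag

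The Ldha window held 7 cores, with 5 before the start and 2 after it, and the Bnip3 window held 5. In Pgk1 the 2 cores lay 150 and 131 bases before the start. Hk2 had cores 226 and 52 bases before the start, and both were ACGTG. Both cores of Adm were of the GCGTG form, and Car9 had a single core 18 bases before its start.

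A window was found for 34 of the 35 members, with Ero1l listed as Ero1a and Ndrg1 without one. A core stood in some window of 32 of these 34 genes (94.1%), against 46.7% of the 27025 genes with a window and 60.8% of the 13326 tested genes with a window. Restricted to the first window listed per gene, the shares were 79.4% for the members and 57.1% for the tested genes. The stricter ACGTG was found in 24 members (70.6%) and in 26.5% of the tested genes. Gpi1 and Tpi1 were the members without any core. Either core was present in 3 of 3 members that fell, in 8 of 9 that rose and in 21 of 22 that did not pass. ACGTG was present in 1 of 3 that fell (33.3%), in 4 of 9 that rose (44.4%) and in 19 of 22 that did not pass (86.4%), a difference that was not tested. These are matches of letters in short windows and not measurements of binding.

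Each value below is the log2 ratio of IWP-2 over control, given per array and then as mean ± SD (n = 4 arrays). The adjusted p is that of limma across all 22461 genes tested, two-sided, with 0.05 as the threshold. On the same arrays Axin2, a direct target of canonical WNT signalling, was lower by a log2 ratio of -1.56 ± 0.09 (limma adjusted p = 1.23e-05).

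Of the 35 members, 3 fell and 9 rose with IWP-2, while 23 did not pass the test. The 12 changed members are 34.3% of the set, close to the 33.1% of all tested genes that passed, with 15% lower and 18.1% higher. The median log2 ratio over the members was 0.01, and that over all tested genes was 0. All 35 changes were below 1.5-fold, a size that 2.95% of all tested genes reached and passed, and 30 were below 1.2-fold. The largest, that of Aldoc, ranked 966 by size among all genes. For 20 of the 23 members that did not pass, the 95% interval lay within 0.25 of 0 on the log2 scale. The other 3 were Egln3 (-0.01 to 0.45), Ndrg1 (-0.03 to 0.32) and Ldha (-0.27 to -0.03). On all 4 arrays 10 members were higher and 4 lower, against 22.3% and 21% of all tested genes, or 43.4% together. No member passed at 2-fold, which 0.908% of all tested genes did.

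**Figure D1:**
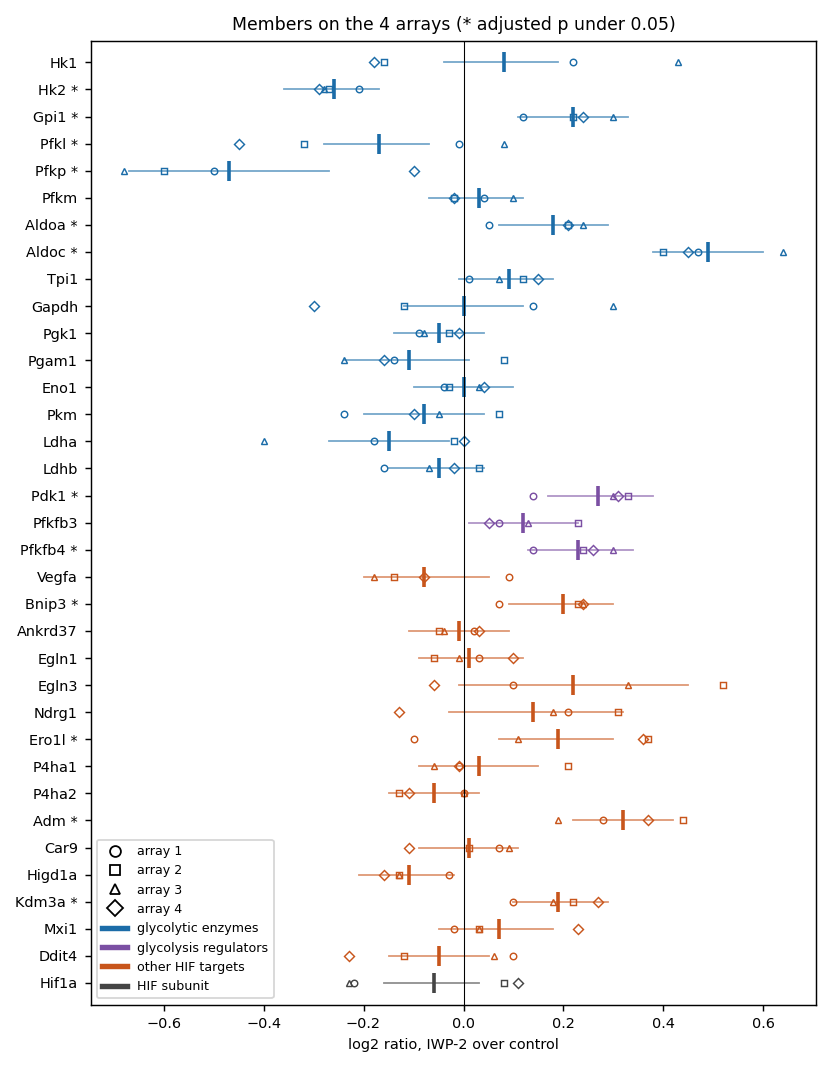
Log2 ratio of IWP-2 over control for the 35 members, with 1 open symbol per array, a vertical mark at the mean of the 4 arrays and a horizontal line for the 95% interval of the limma fit. Pfkp at -0.47 and Aldoc at 0.49 are the extremes, and all other means lie between -0.26 and 0.32.

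Of the 16 glycolytic enzyme genes, 3 fell, 3 rose and 10 did not pass. The 37.5% that changed are close to the 33.1% of all tested genes, and the median log2 ratio was -0.03. Per array this median was -0.03, -0.02, 0.05 and -0.02, so that it had no common sign.

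Hexokinases phosphorylate glucose in the first step. Hk2, the inducible hexokinase, had log2 signals of 12.86, 12.95, 13.02 and 12.95 in the control channels and of 12.64, 12.68, 12.74 and 12.65 in the treated channels. Every treated value lay below every control value. The log2 ratios were -0.21, -0.27, -0.28 and -0.29, with a mean of -0.26 ± 0.04 (limma adjusted p = 0.00387). Of the 3 members that fell it had the smallest SD.

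Hk1, the widely expressed hexokinase, gave 0.22, -0.16, 0.43 and -0.18 with its brightest probe, a mean of 0.08 ± 0.30 (limma adjusted p = 0.263). These values were positive on the arrays with treated RNA in red and negative on those with it in green. Its other 2 probes were above 0 on all 4 arrays, the second of them more so where treated RNA was green. The second gave 0.50, 0.54, 0.40 and 0.68 with a mean of 0.53 ± 0.12 (limma adjusted p = 0.000407 over all 29943 tested probes), and the dimmest gave 0.24 ± 0.04 (limma adjusted p = 0.00498). By the probe positions in the files, on mm9, the brightest probe lies at chr10:61731230-61731288, the second at chr10:61731856-61731915 and the dimmest at chr10:61732717-61732776. Hk1 is therefore counted as not passed, although 2 of its 3 probes were higher.

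Glucose-6-phosphate isomerase, Gpi1, interconverts glucose-6-phosphate and fructose-6-phosphate. Its control signals were 15.96, 16.06, 15.95 and 16.07, and its treated signals 16.08, 16.28, 16.25 and 16.31. The groups did not overlap, with log2 ratios of 0.12, 0.22, 0.30 and 0.24 and a mean of 0.22 ± 0.07 (limma adjusted p = 0.0125). All 3 Gpi1 probes, which overlap in position, gave a mean of 0.22.

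Phosphofructokinase carries out the committed step and has a muscle, a liver and a platelet form. Pfkm, the muscle form, had a mean of 0.03 ± 0.06 and did not pass (limma adjusted p = 0.644). Pfkp, the platelet form, had log2 ratios of -0.50, -0.60, -0.68 and -0.10, with a mean of -0.47 ± 0.26 (limma adjusted p = 0.0077). It was lower on each array, but its control signals of 9.94, 10.05, 10.22 and 9.23 overlapped with treated signals of 9.44, 9.45, 9.54 and 9.13. Array 4 stood apart from the other 3 in both channels. A second Pfkp probe, at chr13:6581718-6583872 (mm9), gave 0.11 ± 0.12 (limma adjusted p = 0.081 over all tested probes) where the brightest, at chr13:6579124-6579183, fell. The fall of Pfkp thus rests on 1 of 2 probes.

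Pfkl, the liver form, had log2 ratios of -0.01, -0.32, 0.08 and -0.45, a mean of -0.17 ± 0.25. It passed with the dye term in the fit (limma adjusted p = 0.0263) and not without it (limma adjusted p = 0.216). The ratio was near 0 on the arrays with treated RNA in red and negative on the others.

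Aldolases split fructose-1,6-bisphosphate into 2 three-carbon sugars. Aldoc, the aldolase best known from the brain, showed control signals of 10.89, 10.99, 10.98 and 11.07 and treated signals of 11.36, 11.39, 11.63 and 11.52. The channels were clearly separate on every array. With log2 ratios of 0.47, 0.40, 0.64 and 0.45 the mean was 0.49 ± 0.11, or 1.41-fold (limma adjusted p = 0.000703). Aldoa, the main aldolase of muscle and most embryonic tissues, gave 0.05, 0.21, 0.24 and 0.21 with a mean of 0.18 ± 0.08 (limma adjusted p = 0.0279). It was higher on each array, though its control signals (15.41 to 15.57) and treated signals (15.47 to 15.77) overlapped.

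From triose phosphates to lactate no enzyme passed with its brightest probe. Tpi1, the triosephosphate isomerase, had a mean of 0.09 ± 0.06 and was above 0 on each array (limma adjusted p = 0.141). Gapdh, which yields the first NADH and is often taken as a reference gene, gave 0.14, -0.12, 0.30 and -0.30 with a mean of 0.00 ± 0.27 (limma adjusted p = 0.952). The sign followed the dye and not the treatment, though no gene had a dye term that passed adjustment. All 9 Gapdh probes had means between 0.00 and 0.06 and none passed. The brightest of them is placed on chromosome 7 in the files and 7 others on chromosome 6, and near-identical copies may share this signal.

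Pgk1 and Pgam1, a kinase and a mutase of phosphoglycerate, had means of -0.05 ± 0.04 (limma adjusted p = 0.328) and -0.11 ± 0.14 (limma adjusted p = 0.146). Eno1, the enolase of most tissues, had values between -0.04 and 0.04 and a mean of 0.00 ± 0.04. Pkm, the pyruvate kinase, had a mean of -0.08 ± 0.13 with its brightest probe (limma adjusted p = 0.283), and -0.16 with its second (limma adjusted p = 0.0317 over all probes). These enzymes, like Gapdh, have near-identical copies in the genome, and whether the probes tell these apart was not tested.

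Lactate dehydrogenase A, Ldha, a classic HIF target, was close to the threshold. Its log2 ratios were -0.18, -0.02, -0.40 and 0.00, a mean of -0.15 ± 0.19 (limma adjusted p = 0.0575). The values near 0 came from the arrays with treated RNA in green. Its 3 probes gave -0.15, -0.16 and -0.18, of which the last passed (limma adjusted p = 0.0312 over all probes). Ldhb, the isoform that favours pyruvate, had a mean of -0.05 ± 0.08.

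**Figure D2:**
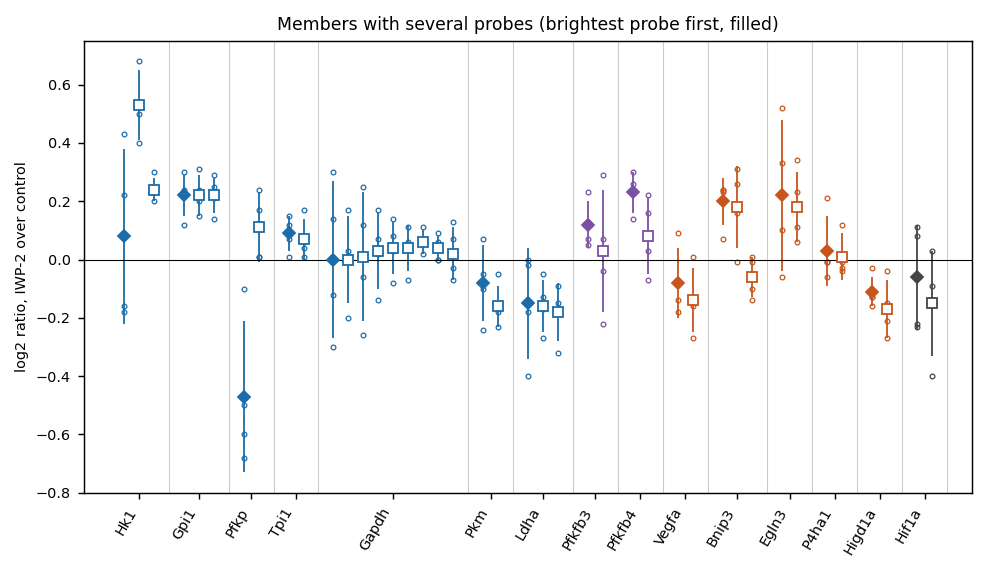
Log2 ratios of IWP-2 over control for the 15 members with more than 1 probe, with open circles for the 4 arrays and diamonds (brightest probe, the one reported) or squares (other probes) for the mean with its SD. The probes of Hk1, Pfkp and Bnip3 differ, while those of Gpi1, Ldha and Gapdh lie together.

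The 3 regulators of glycolysis all had positive values with their brightest probes. Pdk1, the pyruvate dehydrogenase kinase that restrains entry of pyruvate into mitochondria, had control signals of 10.84, 10.71, 10.73 and 10.81 and treated signals of 10.98, 11.04, 11.03 and 11.12. The groups did not overlap. The log2 ratios of 0.14, 0.33, 0.30 and 0.31 had a mean of 0.27 ± 0.09 (limma adjusted p = 0.0052).

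Pfkfb3 and Pfkfb4 set the level of fructose-2,6-bisphosphate, which activates phosphofructokinase. Pfkfb4 gave 0.14, 0.24, 0.30 and 0.26, a mean of 0.23 ± 0.07 (limma adjusted p = 0.00941). A second Pfkfb4 probe gave 0.08 (limma adjusted p = 0.293 over all probes). With its brightest probe Pfkfb3 was above 0 on each array, with 0.07, 0.23, 0.13 and 0.05 and a mean of 0.12 ± 0.08, but did not pass (limma adjusted p = 0.0936). A second, dimmer Pfkfb3 probe gave -0.22, -0.04, 0.29 and 0.07, a mean of 0.03 ± 0.21 (limma adjusted p = 0.838 over all probes).

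Of the 15 other HIF targets, none fell and 4 rose. The 26.7% that changed are below the 33.1% of all tested genes, with 15% lower and 18.1% higher. The median log2 ratio was 0.03. Per array this median was 0.07, 0.03, 0.06 and -0.01. Without array 3, 1 of the 15 passed.

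Adm encodes adrenomedullin, a vasodilating peptide and a long-known hypoxia target, and had the largest rise of this group. Its control signals ranged from 9.93 on array 2 to 10.77 on array 1, and its treated signals from 10.37 on array 2 to 11.06 on array 4. Both channels were low on array 2, so that the groups overlapped although the treated signal was higher within every array. The log2 ratios were 0.28, 0.44, 0.19 and 0.37 with a mean of 0.32 ± 0.11 (limma adjusted p = 0.0024).

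Bnip3, a mitochondrial receptor for mitophagy, gave 0.07, 0.23, 0.24 and 0.24, a mean of 0.20 ± 0.08 (limma adjusted p = 0.0173). Its second probe gave 0.18 and a dim probe -0.06, which did not pass. Kdm3a, a histone demethylase, gave 0.10, 0.22, 0.18 and 0.27, a mean of 0.19 ± 0.07 (limma adjusted p = 0.0132). For both genes every treated signal of the brightest probe was above every control signal. Ero1l, an oxidase for disulfide formation in the endoplasmic reticulum, gave -0.10, 0.37, 0.11 and 0.36, a mean of 0.19 ± 0.23 (limma adjusted p = 0.0278). It was higher on 3 of 4 arrays, and more so where treated RNA was green, and without the dye term it did not pass (limma adjusted p = 0.157).

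The oxygen sensors and Ndrg1 did not pass with their brightest probes. Egln1, the main prolyl hydroxylase acting on HIF-1α, had a mean of 0.01 ± 0.07 (limma adjusted p = 0.831). Egln3, its strongly hypoxia-inducible relative, gave 0.10, 0.52, 0.33 and -0.06, a mean of 0.22 ± 0.26 (limma adjusted p = 0.125). Array 4 alone was below 0, and array 2 was the highest. Without array 4 the mean was 0.37 (limma adjusted p = 0.00508). Without array 1, 2 or 3 it was 0.28, 0.08 and 0.16, and none of these passed (limma adjusted p = 0.124, 0.45 and 0.36). Array 4 was singled out on these same values, so the fit without it is a description only. A second Egln3 probe gave 0.11, 0.34, 0.23 and 0.06, a mean of 0.18 ± 0.12, and passed (limma adjusted p = 0.0451 over all probes). Ndrg1, a stress-responsive gene, was likewise below 0 on array 4 alone, with 0.21, 0.31, 0.18 and -0.13, a mean of 0.14 ± 0.19 (limma adjusted p = 0.174). Without array 4 the Ndrg1 mean was 0.25 (limma adjusted p = 0.0121), and Ndrg1 passed under no other alternative setting.

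Vegfa, the angiogenic growth factor, gave 0.09, -0.14, -0.18 and -0.08, a mean of -0.08 ± 0.12 (limma adjusted p = 0.316). Car9, a carbonic anhydrase of the cell surface, had control signals of 8.05 to 8.18 and treated signals of 8.06 to 8.2 and a mean of 0.01 ± 0.09 (limma adjusted p = 0.828). It was well above background on all arrays but dim, and with a smaller background offset of 10 its mean was again 0.01. Ankrd37, an ankyrin repeat gene, had a mean of -0.01 ± 0.04.

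The collagen prolyl hydroxylase subunits P4ha1 and P4ha2 had means of 0.03 ± 0.12 and -0.06 ± 0.07. Ddit4, an inhibitor of mTORC1 signalling, had a mean of -0.05 ± 0.15, and Mxi1, an antagonist of MYC, of 0.07 ± 0.11. Higd1a, a small mitochondrial protein, was lower on each array with -0.03, -0.13, -0.13 and -0.16, a mean of -0.11 ± 0.05 (limma adjusted p = 0.0761). None of these 5 passed with its brightest probe. A second Higd1a probe gave -0.04, -0.15, -0.27 and -0.21, a mean of -0.17 ± 0.10, and passed (limma adjusted p = 0.0466 over all probes).

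Hif1a itself gave -0.22, 0.08, -0.23 and 0.11, a mean of -0.06 ± 0.18 (limma adjusted p = 0.235). The sign alternated with the dye. Its second probe had a mean of -0.15 and did not pass either (limma adjusted p = 0.079 over all probes).

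**Figure D3:**
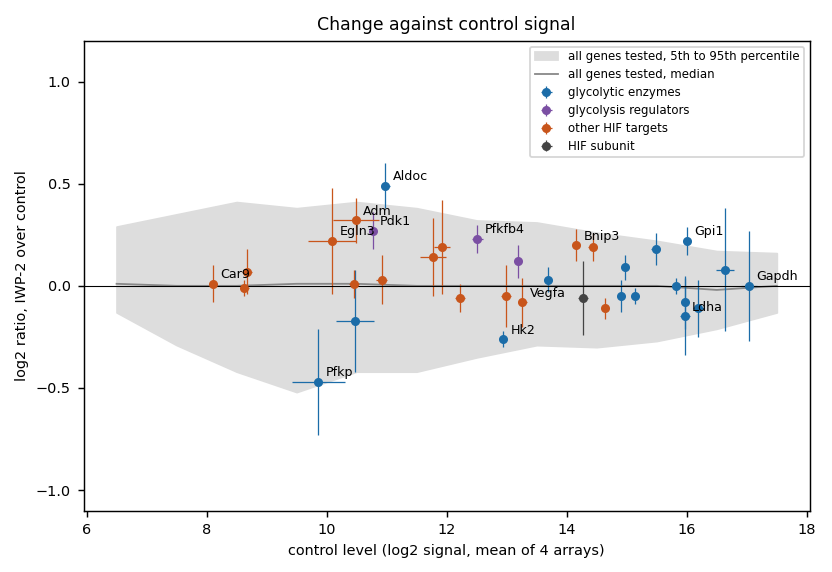
Mean log2 ratio of IWP-2 over control (vertical, SD bars) against the mean log2 signal of the control channel (horizontal, SD bars, n = 4 arrays), with the members coloured by role and the range from the 5th to the 95th percentile of all tested genes in grey. Most members lie inside the grey range, and Aldoc and Gpi1 lie above it.

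Control signals of the glycolytic enzymes had a median of 15.31 on the log2 scale (9.86 to 17.04), and those of the other HIF targets of 11.77 (8.11 to 14.63), beside 11.11 for all tested genes. These are signals of different probes, which bind with different strength, and they do not order the genes by amount of RNA. The median log2 ratio of the enzymes minus that of the other HIF targets was -0.10, -0.05, 0.00 and -0.01 on the 4 arrays, a mean of -0.04 ± 0.04. This mean was of the size of the SD between arrays. The difference between the medians of the gene means, -0.03 for the enzymes and 0.03 for the other targets, was -0.06. Whether the groups differ in their response was not tested. Control and treated signals did not overlap for 11 of the 35 members, against 22.5% of all tested genes.

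Further genes of the same pathways are given for context, beside the 15% of all tested genes that fell and the 18.1% that rose. Of 27 tested genes around glycolysis and pyruvate, 3 fell and 7 rose (37% in all), with a median of 0.05. Fbp1, which opposes phosphofructokinase in gluconeogenesis, gave -0.62, -0.62, -0.85 and -0.72, a mean of -0.70 ± 0.11 (limma adjusted p = 0.000299). Adpgk, an ADP-dependent glucokinase, fell as well, by 0.45 ± 0.18 on the log2 scale. The hexokinase relatives Hkdc1 and Hk3 rose by 0.55 ± 0.13 and 0.48 ± 0.18, Pdk4, a relative of Pdk1, by 0.49 ± 0.22, and Pfkfb2 by 0.30 ± 0.10. Fbp1 and Hk3 were dim, with mean control signals of 8.11 and 8.01 on the log2 scale. The glucose transporter Slc2a1, another classic HIF target, had a mean of 0.10 ± 0.13 and did not pass (limma adjusted p = 0.201).

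Of the 10 components of the HIF pathway, none fell and 3 rose (30%, against 33.1% of all tested genes in either direction), namely Cited2, which competes with HIF for its coactivator (0.33 ± 0.03, limma adjusted p = 0.00165), Hif3a (0.32 ± 0.14) and Epas1, which encodes HIF-2α (0.32 ± 0.27). Of 30 further HIF targets, 7 fell and 7 rose (46.7% in all), with a median of 0.03. Vldlr, a lipoprotein receptor, gave -1.18, -1.14, -1.07 and -1.09, a mean of -1.12 ± 0.05 (limma adjusted p = 2.42e-05), and Loxl2 and Stc2 were lower by -0.42 ± 0.21 and -0.39 ± 0.18. Ak4 (0.47 ± 0.21), Angptl4 (0.40 ± 0.06), Igfbp3 (0.33 ± 0.08) and Bhlhe41 (0.30 ± 0.11) were higher. Stc2 and Bhlhe41 were dim, with mean control signals of 7.22 and 7.28 on the log2 scale. Vldlr is also in a list of 12 targets of the stress factor ATF4, of which 5 fell and 3 rose, among them the serine synthesis genes Psat1 (-0.95 ± 0.19) and Phgdh (-0.45 ± 0.14) and Nupr1 (-0.40 ± 0.17) on the lower side and Trib3 (0.47 ± 0.20) and Ddit3 (0.31 ± 0.13) on the higher side.

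In the pentose phosphate pathway 1 of 7 genes fell and none rose (14.3%), and in the citric acid cycle 1 of 16 fell and 1 rose, both shares below the 33.1% of all tested genes.

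Signals of several cell types moved alongside the members that rose. All 7 epithelial markers rose (median 0.30). The log2 of their summed signals ranged from 17.46 to 17.58 in the control and from 17.64 to 17.96 in the treated channels. Bright markers weigh most in such a sum. Of 6 endothelial markers 4 rose (15.67 to 15.88 against 15.86 to 16.09), beside 18.1% of all tested genes that rose. Of 6 blood markers 4 rose (17.40 to 18.04 against 17.82 to 18.14) and of 8 macrophage markers 6 (14.22 to 14.57 against 14.48 to 14.71). Of 6 mesenchymal markers 1 rose, Pdgfrb at 0.80 ± 0.07, and 1 fell, Tbx18 at -0.74 ± 0.26. The median over these 6 was 0.02, and their sums were 18.46 to 18.58 against 18.52 to 18.67. Of 6 nephron progenitor markers 5 rose and 1 fell (15.5 to 15.62 against 15.65 to 15.84), with Six2 at 1.14 ± 0.27 and Crym at -0.96 ± 0.45, and of 6 neural crest markers 2 rose (15.19 to 15.59 against 15.21 to 15.81). Control and treated sums overlapped for all these lists except the epithelial and the nephron progenitor markers. All markers named in these counts were well above background in all channels. Their part in the rises of Gpi1, Aldoa, Aldoc, Pdk1, Pfkfb4, Bnip3, Ero1l, Adm and Kdm3a was not tested.

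The call of a member depended on the processing for most of the 12. Only Hk2, Aldoc and Adm passed under each of the 16 alternative settings. These 3 genes have a single probe each, so that the second brightest probe and the mean of all probes could not change them. The cut-offs of the study, which its results text gives for a pair of arrays, were applied here to all 4. With more than 2-fold at an intensity above 100 on each of the 4, the selection held 117 of the 22461 tested genes and no member. At 1.5-fold it held 298 genes and no member.

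**Figure D4:**
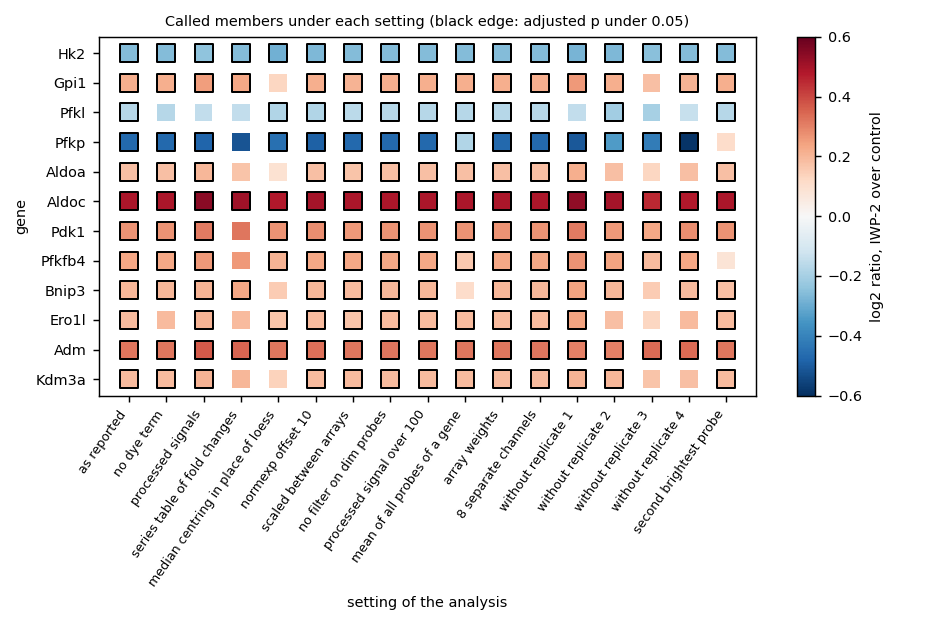
Log2 ratio of IWP-2 over control (colour) of the 12 members that passed, under the reported and each alternative setting, with a black edge where the limma adjusted p was under 0.05. Hk2, Aldoc and Adm keep the edge throughout, and Pfkp turns from -0.47 to 0.11 with its second probe.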

How the data were processed

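Total RNA of treated and control ureter pools was compared on 4 two-colour arrays. The authors scanned them with Agilent Feature Extraction 10.7.3.1, and the deposited files give raw and processed spot intensity per channel. Per the file headers, the processed intensities were background-subtracted, detrended and dye-normalised, and the log10 ratio is that of processed red over green (used to check direction, r of 0.934 to 1). The authors also deposited signed fold changes rounded to 1 decimal, held here as a score, whose normalisation is not stated in the sources used here. They served as an alternative.

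Raw intensities were corrected with normexp (offset 50) and loess (span 0.3) in limma 3.58.1 (R 4.3.3). Control and outlier spots (3.01% to 3.38%) were left out and the 4 spots of a probe averaged. No gene spot was saturated. The median raw intensity was 368 to 711 in control and 385 to 694 in treated channels, over a background of 28 to 77, and the number of arrays limits the precision. A probe was tested if more than 0.5 of its spots were well above background in 1 group on all 4 arrays, and the brightest stood for its gene (22461 genes). lmFit and eBayes fitted treatment and a dye term, with 2 residual degrees of freedom per gene and Benjamini-Hochberg adjustment. The dye term passed adjustment for 0 genes, so the dye patterns given for single genes are descriptions. Exact permutation over 4 arrays cannot reach 0.05. On simulated data for this comparison over 22461 genes, 38.8% of changes of 0.2 on the log2 scale and 100% of those of 0.5 were recovered. There were 25 false calls. Changes of 0.2, 0.5 and 1 were set in 67, 67 and 66 genes, far fewer than the 7429 that passed here. The shares are therefore not the power of the test on the real data.

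Members and lists were chosen with earlier results of these data known. All members are named, and of the context lists the genes past the test with a log2 ratio of at least 0.3 (at most 8 a list). Slc2a1 was named outside this rule. Probe positions are on mm9 and promoters on GRCm38.p6, and no annotation of mm9 was used. Alternatives covered background, normalisation, dye term, filters, probe choice, array weights and leaving out each array. Figures were drawn with matplotlib 3.10.9.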

Additional observations from a re-analysis of the deposited data

Results flagged for a closer look

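For Bnip3, array 1 lay apart from the others, with a log2 ratio of 0.07 against 0.23, 0.24 and 0.24. The gap made up 0.931 of the range. The median over the glycolytic enzymes was 0.05 on array 3 and between -0.03 and -0.02 on the others, with a gap of 0.89 of the range. All 35 members and the medians were checked in this way, and chance sets apart about 1 in 20 groups of 4 values.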

How the results depend on the processing

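Hk2, Aldoc and Adm passed under all 16 alternatives, of which the 2 on the choice of probe could not change them, as each has a single probe. With the rounded fold changes of the series table, 3883 genes passed (2050 lower, 1833 higher), with 6 members, 3 glycolytic enzymes (1 lower), 0 regulators and 3 other HIF targets (P4ha2 lower, Bnip3 and Adm higher), so that 1 of them was lower. With median centring in place of loess, 1 glycolytic enzyme was higher and 2 other HIF targets passed. With the mean of all probes, with 8 separate channels and with the second brightest probe, 1 other HIF target was lower in each case, and with the second brightest probe 1 regulator passed. The second brightest probe, an alternative chosen after seeing the data, turned Pfkp to 0.11 (limma adjusted p = 0.0842). The cut-offs of the study, applied to all 4 arrays, selected 0 members. Higd1a passed as lower with the mean of all probes, with 8 separate channels and with its second probe. Without the dye term Pfkl and Ero1l did not pass.

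The median of the glycolytic enzymes was -0.1 with median centring. That of the other HIF targets was 0.07 with the series table and 0.09 for genes with a processed signal over 100. The difference of the medians was -0.06 as reported. It was -0.1, -0.13 and -0.11 under the series table, median centring and the signal limit, and -0.01 with the second brightest probe. The median over all genes stayed between -0.01 and 0.02. The cause of these shifts was not tested.

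Leaving out 1 array left 5056 to 5878 genes (2177 to 2811 lower, 2879 to 3348 higher), 6 to 12 members, 3 to 6 glycolytic enzymes (2 to 3 lower, 1 to 3 higher), 1 to 4 other HIF targets and 2 regulators. Without array 3, Gpi1, Pfkl, Aldoa, Bnip3, Ero1l and Kdm3a no longer passed. Without array 4, Pfkl, Aldoa, Ero1l and Kdm3a did not pass, while Egln3 and Ndrg1 did. Without array 2, Aldoa and Ero1l were lost, and without array 1 Pfkl was lost and Ldha gained. Small values that passed in neither setting were not counted as reversed when their sign changed. The reported fit is already paired, because the treated and control pools of a replicate share 1 array and enter as the ratio within it. With a normexp offset of 10, Car9, Ankrd37 and Mxi1 stayed at 0.01, -0.01 and 0.07.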
